A study of Homo sapiens with 12 samples.

Results

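The genes described here make, break down and read cyclic AMP (cAMP), and were taken by symbol from the deposited count table: 24 phosphodiesterases (PDE), 10 adenylyl cyclases (ADCY), 6 subunits of protein kinase A (PKA), and 12 downstream genes, namely the salt-inducible kinases SIK1, SIK1B, SIK2 and SIK3, the transcription factors CREB1 and CREM, the coactivators CRTC1, CRTC2 and CRTC3, and the nuclear receptors NR4A1, NR4A2 and NR4A3. They are 52 of the 60623 genes in the table. The study asked how phosphorylation of the aryl hydrocarbon receptor (AHR) at S489 by the kinase PLK1 alters A549, a human lung adenocarcinoma cell line. Poly(A) RNA was sequenced from 4 stable lines, with 3 libraries per line that the labels call biological replicates, 12 in all. The V line received an empty lentiviral vector (pLV-EF1a-IRES-Hygro). The WT line received HA-tagged wild-type AHR, the SA line HA-AHR with S489A, which cannot be phosphorylated there, and the SD line HA-AHR with S489D, a mimic of the phosphorylated form. All 4 lines were grown in RPMI medium with serum, selected with 200 ug/ml hygromycin, and still carried their own AHR gene. No AHR ligand or cAMP-raising agent is named in the labels. Each construct was carried by 1 line, so what a construct did and what else set its line apart cannot be told apart, and p-values measure the spread between libraries of a line.

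Adenylyl cyclases make cAMP from ATP when the stimulatory G protein is active, and phosphodiesterases hydrolyse cAMP, cGMP or both. When cAMP binds the regulatory subunits of PKA, the catalytic subunits are released and phosphorylate CREB1, which drives genes with a cAMP response element in their promoters, among them SIK1 and the NR4A receptors. Salt-inducible kinases hold the CRTC coactivators of CREB1 in the cytoplasm, and PKA inhibits these kinases, so that CRTC proteins enter the nucleus when cAMP is high.

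The libraries held between 7844045 and 11765576 expected counts, at which a count of 0 allows up to 0.255 to 0.382 CPM (3 counts of the total, counting error only). Levels are given as CPM, counts scaled to the library totals after TMM normalization with edgeR. The introduced receptor was seen in all 9 AHR libraries: AHR was at 69.0 ± 4.67 CPM in V (mean ± SD, n = 3) and 266 ± 28.8 CPM in WT, with 224 ± 6.20 CPM in SA and 210 ± 9.86 in SD. The table also lists ENSG00000283321, which was at 0 in every V library and averaged 203 CPM in WT, 170 CPM in SA and 85.5 CPM in SD, and the sum of both was 69.0 CPM in V and 469 CPM in WT, with 394 CPM in SA and 296 in SD. Of 9 epithelial and A549 markers, 8 averaged above 1 CPM, and the endothelial markers VWF and KDR, the T-cell marker CD3E and the fibroblast markers COL1A2 and DCN were at 0 in every library. Of 5 markers of alveolar type 2 cells, the cell type A549 is used to model, only ABCA3 was above 1 CPM.

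Of the 52 genes, 41 were expressed highly enough to be tested in at least 1 of the 6 comparisons between lines and 38 in all 6. The 11 that were tested in none were PDE1A, PDE1B, PDE6A, PDE6B, PDE6C, PDE6H, PDE11A, ADCY2, ADCY4, ADCY8 and ADCY10. PDE6H, a cone photoreceptor subunit, and ADCY2 had no count in any library. None of the 11 exceeded 1.14 CPM in any library. All 6 PKA subunits and all 12 downstream genes were tested in at least 1 comparison. Thus A549 cells expressed 17 of 24 phosphodiesterase genes and 6 of 10 cyclases at a level that could be tested in at least 1 comparison. The 17 include PDE6D and PDE6G, which have no catalytic domain. PDE6G was tested in only 1 comparison and PDE5A in 2.

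Levels were compared between genes as CPM per kb of exon, averaged over the 12 libraries. Among the phosphodiesterases, the cAMP-specific enzymes PDE8A (15.5 CPM per kb) and PDE4D (14.7 CPM per kb) stood highest, followed by PDE7B at 6.74 CPM per kb. PDE6D, at 5.46 CPM per kb, is a carrier of prenylated proteins rather than an enzyme. PDE4B was at 4.99 CPM per kb and PDE3A at 4.17 CPM per kb. Among the cyclases, ADCY3 (18.7 CPM per kb), ADCY6 (9.67 CPM per kb) and ADCY7 (6.0 CPM per kb) led. The type I regulatory subunit PRKAR1A was the highest PKA subunit at 25.8 CPM per kb, followed by the catalytic subunit PRKACA at 8.76 CPM per kb and the type II regulatory subunit PRKAR2A at 7.11 CPM per kb. SIK1B reached 77.5 CPM per kb, the highest of the 52 genes, ahead of CRTC2 (10.7 CPM per kb) and CRTC3 (6.46 CPM per kb) among the downstream genes. These levels rest on all annotated exons of a gene, so a gene with long, rarely used exons reads low on this scale.

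**Figure D1:**
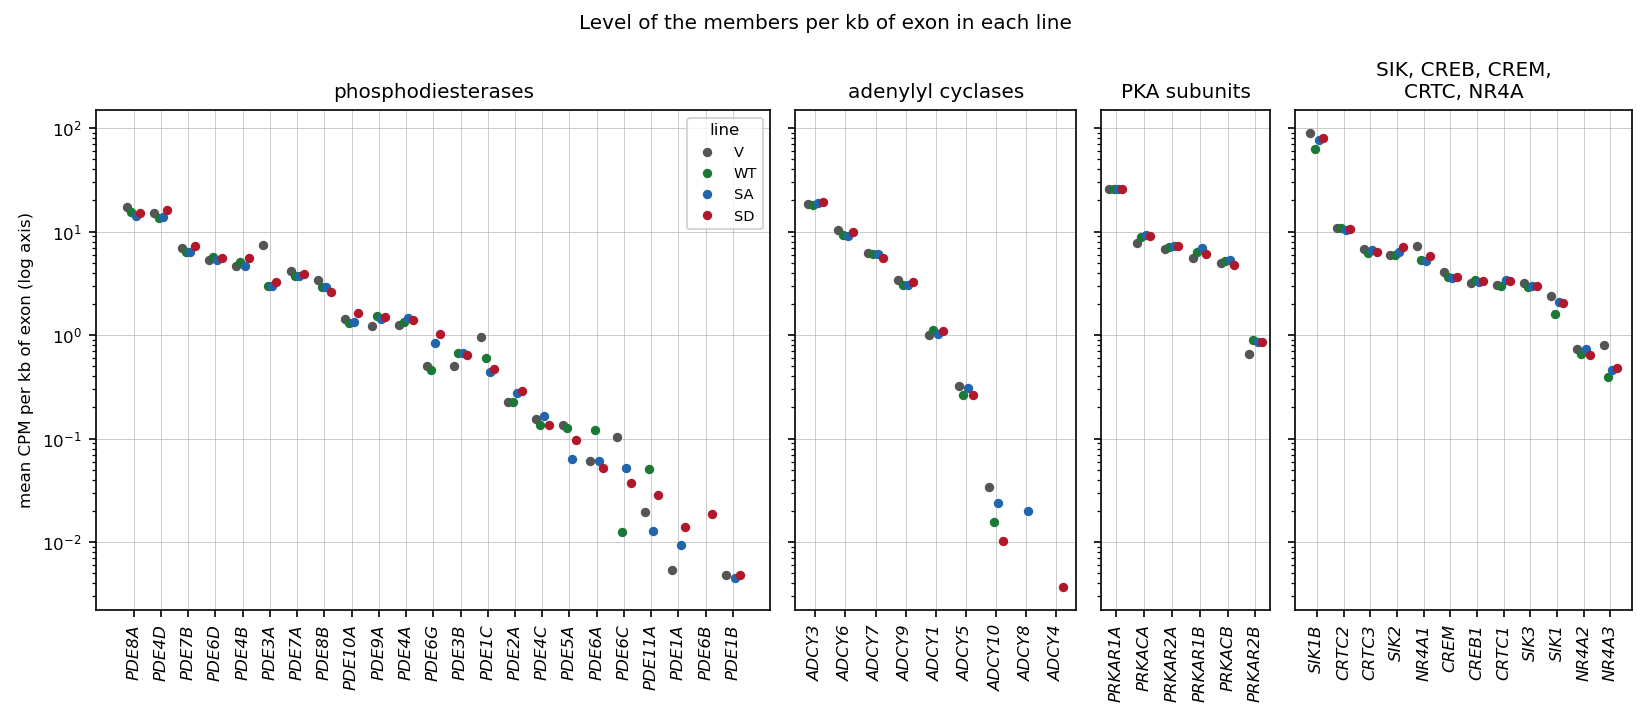
Mean CPM per kb of exon (log axis) of each gene in the V, WT, SA and SD lines, in 4 families, with genes ordered by their mean over the 12 libraries. PDE3A and PDE1C stood higher in V than in the AHR lines, and means of 0 cannot be drawn on this axis, so PDE6H and ADCY2 do not appear.

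The first question was whether these genes differ between each AHR line and the V line. Differences were tested with edgeR's quasi-likelihood test on all expressed genes, with Benjamini-Hochberg adjustment over all genes tested, and an adjusted p under 0.05 was taken as a change. In WT against V, 6 of 39 tested members changed, all of them lower, where 5.24% of all 14772 genes tested changed. These 6 include both SIK1 and SIK1B, which is annotated as a copy of SIK1, and with their counts summed 5 members changed. In SA against V, 6 of 39 changed, 5 lower and 1 higher, where 7.17% of 14913 genes changed. In SD against V, 5 of 38 changed, 4 lower and 1 higher, where 5.41% of 14890 genes changed. The members' share was 15.4% for WT, 15.4% for SA and 13.2% for SD. The members were chosen with earlier results of these data known, so these shares were not tested against those of all genes. The 3 comparisons share the V libraries and are not independent. Their median log2 fold change was −0.11 for WT, −0.03 for SA and −0.03 for SD, while the median over all genes tested lay at 0.00 in each. PDE3A, PDE1C and NR4A1 were lower in all 3 AHR lines, and no cyclase changed in any line. Without V replicate 1, 3 members passed in WT and 3 in SD, and in SD 3 passed without V replicate 3 and 2 without SD replicate 2.

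**Figure D2:**
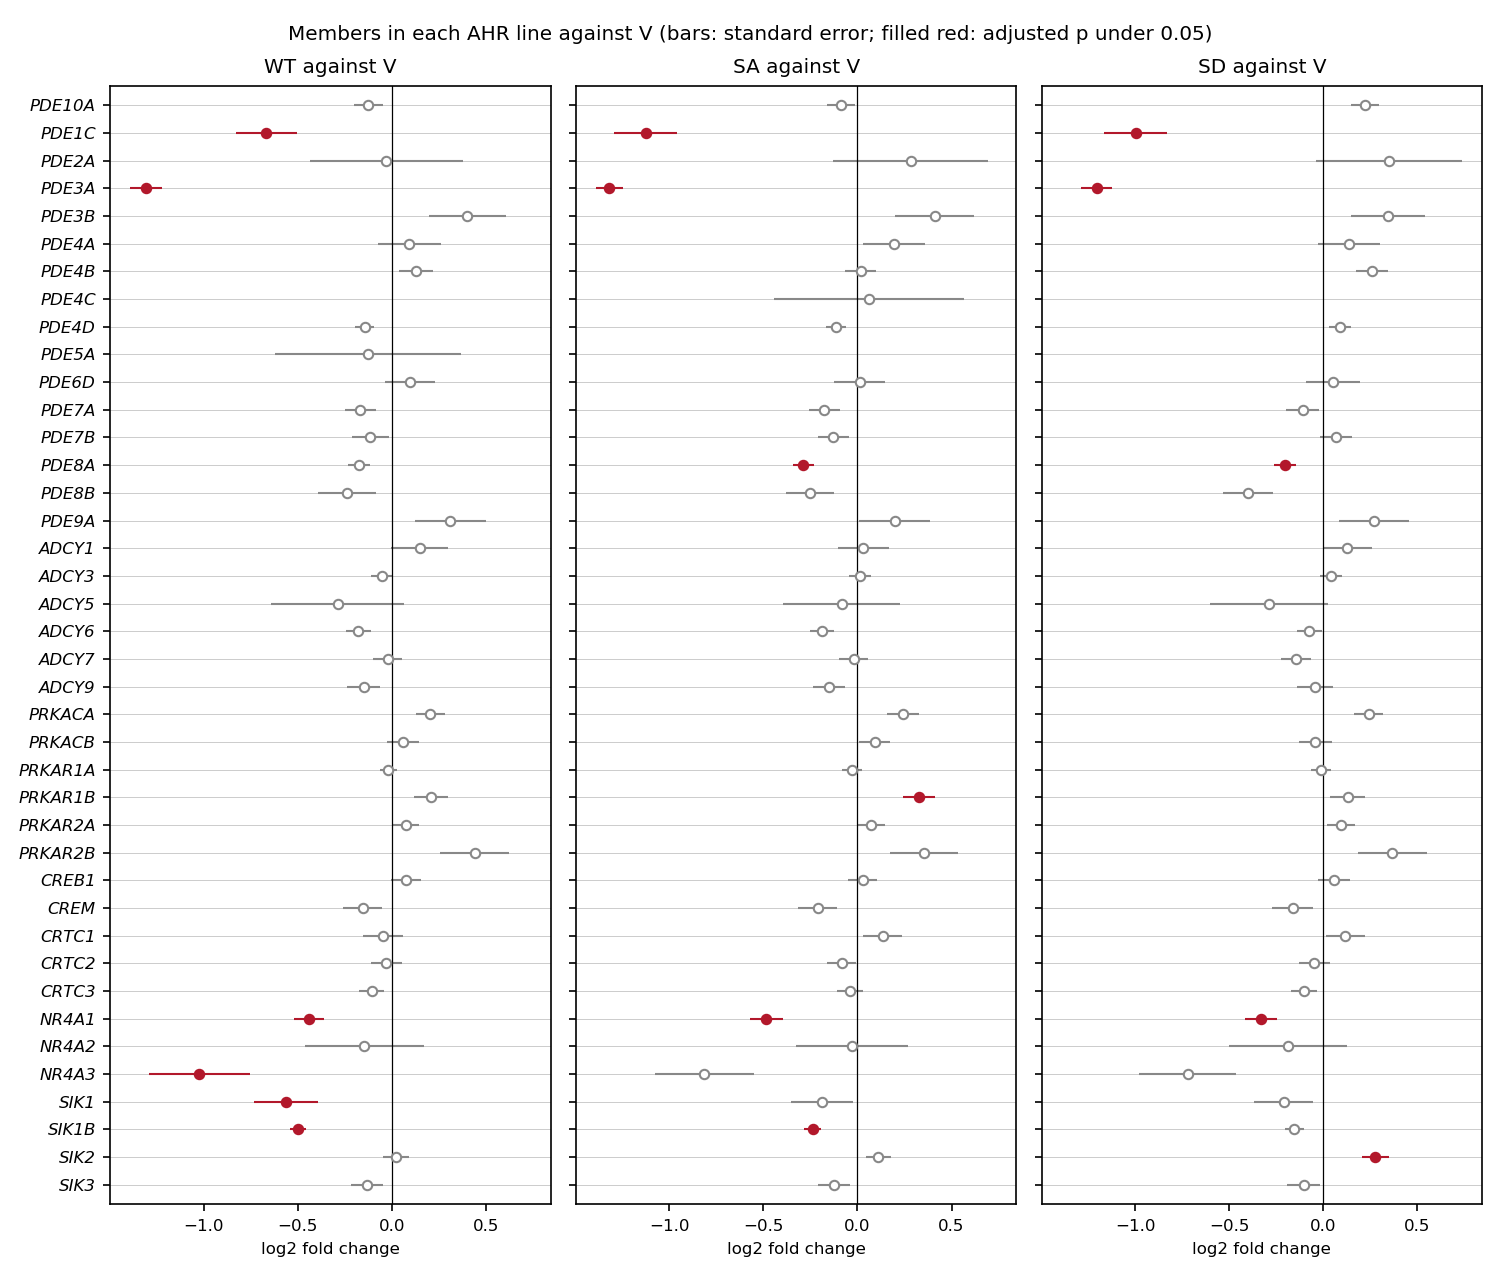
Log2 fold change of each tested member in WT, SA and SD against V, with bars for the standard error and filled red points for an adjusted p under 0.05 (edgeR). PDE3A, PDE1C and NR4A1 are red and left of 0 in all 3 panels, and PRKAR1B in SA and SIK2 in SD are the only red points on the right.

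PDE3A, which hydrolyses cAMP and is inhibited by cGMP, differed most. It lies on the plus strand of chromosome 12 (20369245 to 20684381, GRCh38). The V libraries held 93.8, 98.9 and 105 CPM. The WT libraries held 35.4, 48.1 and 35.9 CPM, the SA libraries 38.6, 39.5 and 41.7 CPM, and the SD libraries 44.4, 47.9 and 37.3 CPM. Every V library was well above every AHR library, and the 3 AHR lines overlapped one another. PDE3A fell by 1.31 on the log2 scale in WT (standard error 0.08, adjusted p = 9.58e-12), by 1.32 in SA (standard error 0.07, adjusted p = 1.99e-13) and by 1.20 in SD (standard error 0.08, adjusted p = 7.31e-11). Its relative PDE3B, the isoform known from fat and liver, did not pass: it was at 5.85 ± 1.00 CPM in V and 7.75 ± 0.68 CPM in WT, with 7.78 ± 1.73 CPM in SA and 7.44 ± 0.15 in SD, with an adjusted p of at least 0.282. PDE3A shares 3.04% of its exonic bases with the antisense gene PDE3A-AS1, and the sources used here do not say whether the libraries keep strand.

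PDE1C, a calcium and calmodulin dependent enzyme for cAMP and cGMP, followed. It lies on the minus strand of chromosome 7 (31751179 to 32428131). The V libraries held 14.1, 14.4 and 11.7 CPM, and the WT libraries 8.11, 7.6 and 9.72 CPM. The SA libraries held 6.30, 5.76 and 6.47 CPM, and the SD libraries 6.19, 6.11 and 7.78 CPM. All V libraries were above all AHR libraries, and WT lay between V and SA without overlapping either. PDE1C fell by 0.67 in WT (standard error 0.16, adjusted p = 0.0103), by 1.13 in SA (standard error 0.17, adjusted p = 4.38e-05) and by 1.00 in SD (standard error 0.17, adjusted p = 3.11e-04). Between WT and SA the difference of 0.46 did not pass (adjusted p = 0.613). The WT change did not pass without V replicate 1 (adjusted p = 0.0661) or without WT replicate 2 (adjusted p = 0.0623), over a range of 0.00294 to 0.0661 in all settings tried.

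PDE8A, a high-affinity cAMP enzyme and the phosphodiesterase with the highest level per kb of exon, lies on the plus strand of chromosome 15 (84980440 to 85139145). It was at 142, 131 and 144 CPM in the V libraries and at 114, 135 and 120 CPM in the WT libraries, which overlapped. The SA libraries held 117, 111 and 115 CPM and the SD libraries 118, 120 and 125 CPM, all below the V libraries. PDE8A fell by 0.29 in SA (standard error 0.06, adjusted p = 0.00131) and by 0.20 in SD (standard error 0.06, adjusted p = 0.0424), and the WT difference was −0.17 (adjusted p = 0.0846). The SD call was lost without V replicate 1 (adjusted p = 0.193), V replicate 3 (0.181), SD replicate 1 (0.0754) or SD replicate 2 (0.149), and with DESeq2 (0.0553), over a range of 0.0238 to 0.193.

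The remaining phosphodiesterases did not pass against V in any line. PDE4D, a cAMP-specific enzyme, was at 253, 235 and 251 CPM in V and at 212, 238 and 217 CPM in WT. Its libraries in SA held 217, 242 and 225 CPM and in SD 281, 259 and 245 CPM. The V libraries overlapped those of each AHR line, and the log2 fold change against V was −0.15 in WT (adjusted p = 0.0904), −0.12 in SA (adjusted p = 0.206) and 0.09 in SD (adjusted p = 0.487). PDE7B, another cAMP-specific enzyme, was at 43.0, 37.7 and 43.0 CPM in V, 30.8, 42.3 and 40.4 in WT, 36.0, 39.6 and 37.9 in SA, and 46.7, 41.5 and 41.7 in SD, with all lines overlapping V.

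The 21 phosphodiesterase genes with a catalytic domain (all but PDE6D, PDE6G and PDE6H) were grouped by the nucleotide their products hydrolyse, and each group's share of their summed level per kb was computed in every library. Enzymes for both cAMP and cGMP (PDE1, PDE2, PDE3, PDE10 and PDE11) made up 15.5%, 17.1% and 16.2% of the sum in the V libraries, and between 10.2% and 11.1% in the 9 AHR libraries. The V libraries stood above all others, and the AHR lines overlapped. The cAMP-specific enzymes (PDE4, PDE7 and PDE8) made up 81.4% ± 1.06 of it in V and 86.4% ± 0.44 in WT, with 86.6% ± 0.17 in SA and 86.6% ± 0.17 in SD. PDE3A alone accounted for 11.5% ± 0.83 of the sum in V and for 5.30% ± 0.61 in WT, with 5.47% ± 0.24 in SA and 5.40% ± 0.60 in SD. With PDE3A left out of both the group and the sum, the enzymes for both nucleotides stood at 5.43% ± 0.36 in V and 5.36% ± 0.46 in WT, with 5.30% ± 0.24 in SA and 5.48% ± 0.44 in SD, values that lay within 1 SD of one another. These shares are descriptions of transcript levels and were not tested.

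**Figure D3:**
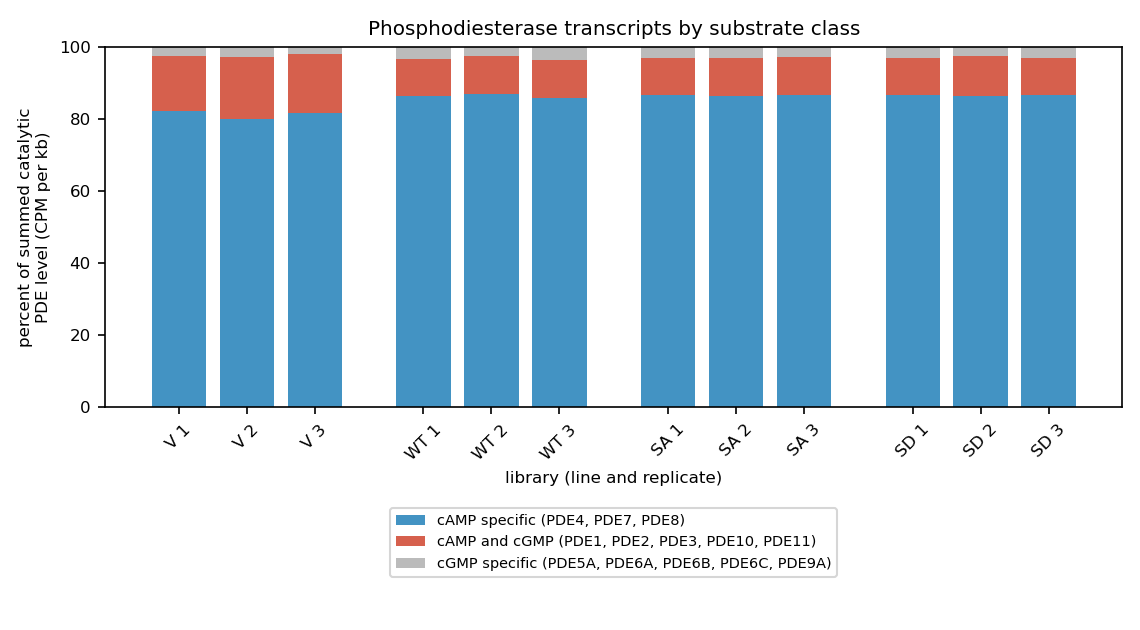
Share of the summed level (CPM per kb of exon, in percent) of the 21 catalytic phosphodiesterase genes in each of the 12 libraries, by the nucleotide hydrolysed. The group for both cAMP and cGMP takes 15.5% to 17.1% in the V libraries and 10.2% to 11.1% in the AHR libraries.

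No adenylyl cyclase passed the edgeR test with all 6 libraries of a comparison. ADCY3, the highest per kb of exon, was at 125, 117 and 120 CPM in V, 124, 115 and 110 in WT, 127, 118 and 121 in SA, and 121, 124 and 126 in SD. ADCY6, which calcium inhibits, was at 90.2, 88.6 and 85.3 CPM in V, 84.8, 77.5 and 71.9 in WT, 80.3, 75.1 and 77.2 in SA, and 90.2, 81.4 and 79.6 in SD. Its WT and SA libraries lay below the V libraries, with log2 differences of −0.18 (adjusted p = 0.124) and −0.19 (adjusted p = 0.0669). ADCY7 was at 52.1, 50.4 and 57.1 CPM in V, 50.6, 53.0 and 53.4 in WT, 57.0, 50.3 and 51.1 in SA, and 50.8, 46.2 and 47.4 in SD, with overlap between every AHR line and V. Summed over the family, the cyclases were at 40.0 ± 0.91 CPM per kb in V and 37.8 ± 1.81 in WT, with 38.7 ± 1.36 in SA and 39.3 ± 0.59 in SD. In these lines 0 of 6 tested cyclases passed the edgeR test in any of the 6 comparisons, where 0.0803% to 7.17% of all genes passed. With 6 genes tested, 0 does not set the cyclases apart from all genes. At an unadjusted p under 0.05 there was 1 cyclase in WT against V and 1 in SA against V, ADCY6 in each. The share of all genes at that unadjusted cutoff is not given here. Without SA replicate 1, ADCY6 passed in SA against V.

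Of the PKA subunits, PRKAR1B changed. This type I regulatory subunit, best known from brain, lies on the minus strand of chromosome 7 (549197 to 727650). Its V libraries held 26, 28.2 and 28.3 CPM and its SA libraries 34.6, 33.9 and 35.5 CPM. The WT libraries held 34.1, 30.3 and 31.4 CPM and the SD libraries 29.7, 30.0 and 30.6 CPM. Every AHR library was above every V library. The rise in SA was 0.33 on the log2 scale (standard error 0.09, adjusted p = 0.0181), and the differences were 0.21 in WT (adjusted p = 0.231) and 0.13 in SD (adjusted p = 0.521). The SA call was lost without V replicate 1 (adjusted p = 0.113), without SA replicate 3 (0.0798) and with DESeq2 (0.0547), over a range of 0.00874 to 0.113, and 7.72% of the exonic bases of PRKAR1B lie opposite exons of DNAAF5.

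The other subunits did not pass. PRKAR1A was at 326, 320 and 337 CPM in V, 324, 338 and 309 in WT, 294, 334 and 340 in SA, and 302, 340 and 334 in SD, and its log2 fold changes lay between −0.03 and −0.01 against V. PRKACA, the main catalytic subunit, was at 54.1, 52.2 and 64.1 CPM in V and at 63.9, 65.3 and 67.1 in WT. It was at 57.8, 75.3 and 69.0 CPM in SA and 65.3, 68.9 and 67.1 in SD. Its log2 difference from V was 0.20 in WT (adjusted p = 0.133), 0.24 in SA (adjusted p = 0.0910) and 0.24 in SD (adjusted p = 0.0704), and 1 V library overlapped the WT and SA libraries. PRKAR2A was at 58.3, 59.8 and 59.5 CPM in V, 61.5, 59.2 and 66.6 in WT, 59.0, 59.8 and 68.8 in SA, and 59.3, 60.4 and 69.9 in SD, and overlapped V in every line.

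The salt-inducible kinase SIK1 appears in the table as 2 near-identical genes. SIK1 lies on the minus strand of chromosome 21 (43414483 to 43427131) and SIK1B on its plus strand (6111131 to 6123778). The GENCODE v44 annotation marks SIK1B as an artifactual duplication of SIK1. Their longest transcripts have 4747 bases each, and 94.2% of the 50-base words in SIK1B transcripts also occur in SIK1 transcripts. Reads were divided between the copies by estimation, and the counts of both were not whole numbers in any of the 12 libraries, so the sum of the copies is given beside each. SIK1B took nearly all of the signal.

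The sum of SIK1 and SIK1B was 429, 452 and 433 CPM in the V libraries. It was 295, 311 and 322 CPM in WT, 382, 367 and 370 in SA, and 403, 386 and 391 in SD. WT was lowest, below every library of the other lines, V was highest, and SA and SD lay between. The sum fell by 0.50 in WT against V (standard error 0.05, adjusted p = 7.03e-09) and by 0.24 in SA against V (standard error 0.05, adjusted p = 0.00132), and the difference in SD was −0.15 (adjusted p = 0.0853). SIK1B as deposited was at 417, 441 and 419 CPM in V, 289, 302 and 313 in WT, 374, 354 and 359 in SA, and 392, 377 and 379 in SD. It fell by 0.50 in WT (adjusted p = 7.38e-09) and by 0.24 in SA (adjusted p = 0.00150), and its difference in SD was −0.15 (adjusted p = 0.0909). SIK1 as deposited was at 11.5, 11.6 and 14.1 CPM in V, 6.46, 9.19 and 9.27 in WT, 8.30, 13.1 and 11.2 in SA, and 10.5, 9.33 and 12.2 in SD. It fell by 0.56 in WT (standard error 0.17, adjusted p = 0.0482), a call lost on leaving out any 1 of the 6 libraries: adjusted p = 0.0866, 0.0577 and 0.213 without V replicates 1, 2 and 3, and 0.208, 0.0585 and 0.0671 without WT replicates 1, 2 and 3. It was also lost with DESeq2 (adjusted p = 0.0981) and with all 12 libraries in the fit (0.0780), over a range of 0.0241 to 0.213.

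SIK2, a kinase of CRTC proteins in many tissues, lies on the plus strand of chromosome 11 (111602449 to 111730855) and went the other way. It was at 56.3, 56.9 and 59.3 CPM in V, 57.3, 59.9 and 58.0 in WT, 62.5, 63.5 and 61.3 in SA, and 64.0, 73.5 and 71.5 in SD. The SD libraries stood above all others, SA lay above V and WT, and V and WT overlapped. SIK2 was higher by 0.28 in SD than in V (standard error 0.07, adjusted p = 0.0207), and by 0.11 in SA (adjusted p = 0.387). The SD call was lost without V replicate 1 (adjusted p = 0.104), V replicate 2 (0.0805), V replicate 3 (0.0507), SD replicate 2 (0.129) or SD replicate 3 (0.0672), over a range of 0.00667 to 0.129. SIK3 did not pass in any comparison.

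NR4A1 and NR4A3 are orphan nuclear receptors whose genes respond quickly to cAMP and other stimuli. NR4A1 lies on the plus strand of chromosome 12 (52022832 to 52059507). Its V libraries held 47.8, 57.6 and 54.1 CPM and its WT libraries 38.3, 39.7 and 39.4 CPM. The SA libraries held 43.2, 36.4 and 35.0 CPM and the SD libraries 46.6, 40.1 and 40.0 CPM. Every V library was above every AHR library, by a narrow margin in SD. NR4A1 fell by 0.44 in WT (standard error 0.08, adjusted p = 6.81e-04), by 0.48 in SA (standard error 0.09, adjusted p = 5.95e-04) and by 0.33 in SD (standard error 0.09, adjusted p = 0.0213). The SD call was lost without V replicate 2 (adjusted p = 0.141), V replicate 3 (0.0813), SD replicate 2 (0.115) or SD replicate 3 (0.0890), over a range of 0.00518 to 0.141. The antisense gene NR4A1AS covers 10.3% of its exonic bases.

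NR4A3 lies on the plus strand of chromosome 9 (99821855 to 99866891) and was expressed at a low level. Its V libraries held 5.12, 5.30 and 4.74 CPM and its WT libraries 2.53, 2.39 and 2.54 CPM. The SA libraries held 2.80, 3.52 and 2.31 CPM and the SD libraries 2.69, 2.68 and 3.75 CPM. All V libraries stood above all AHR libraries. NR4A3 fell by 1.02 in WT (standard error 0.27, adjusted p = 0.0202), and its differences were −0.81 in SA (adjusted p = 0.0569) and −0.72 in SD (adjusted p = 0.108). The WT call was lost without V replicate 1 (adjusted p = 0.0800), V replicate 2 (0.0648), WT replicate 1 (0.0524), WT replicate 2 (0.0674) or WT replicate 3 (0.0606), over a range of 0.00530 to 0.0800. NR4A2, the remaining receptor, lay between 2.15 and 3.62 CPM over the 12 libraries and did not pass.

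**Figure D4:**
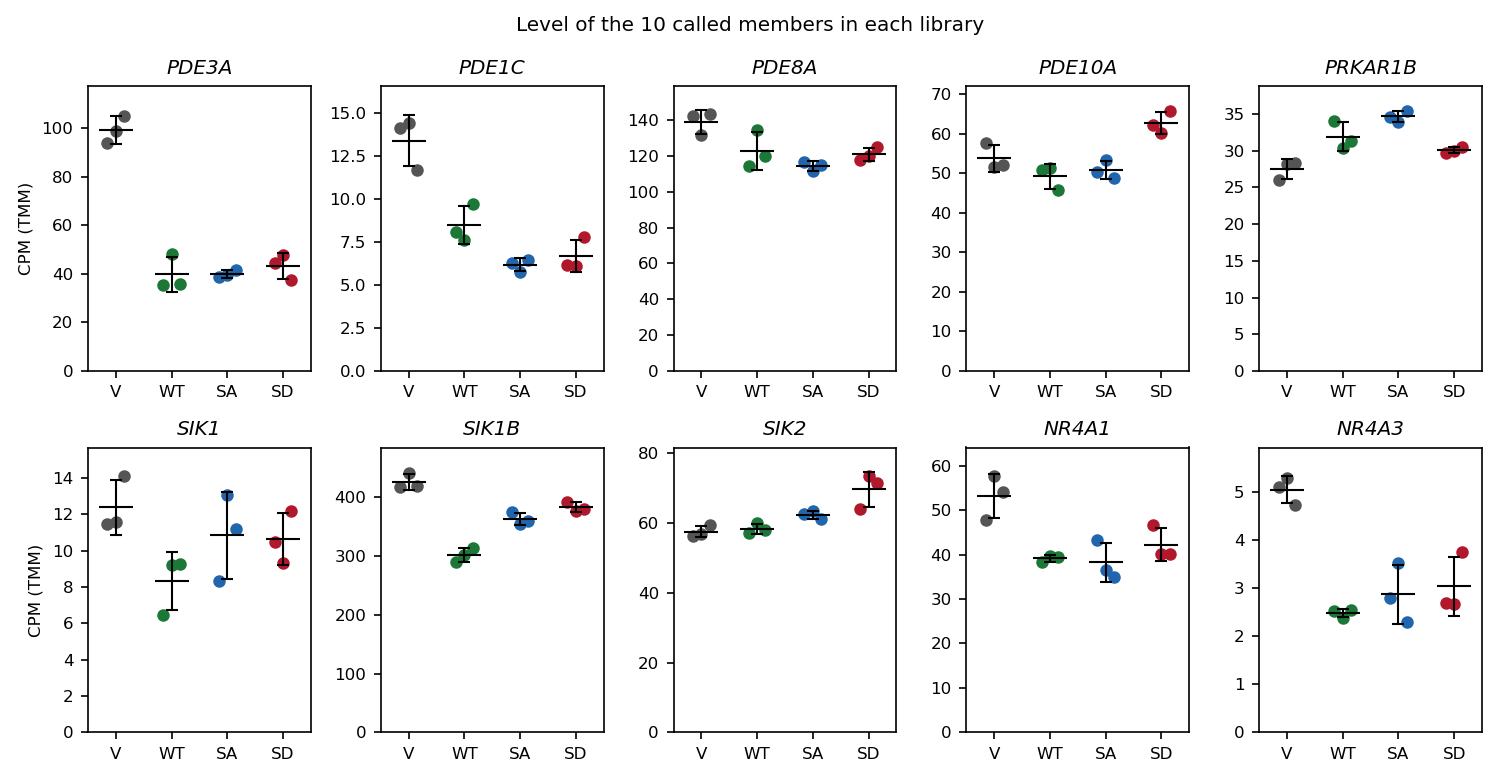
CPM (TMM) of the 10 members that changed in at least 1 comparison, with 1 point per library and the mean ± SD of 3 libraries per line. SIK1 and its annotated copy SIK1B are counted apart. PDE3A sits between 93.8 and 105 CPM in V and at or below 48.1 CPM in the AHR lines, SIK1B is lowest in WT, and PDE10A is highest in SD.

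CREB1 and its coactivators are regulated mainly at the protein level. CREB1, CREM, CRTC1, CRTC2 and CRTC3 did not pass in any comparison. CRTC2 was at 41.1, 38.6 and 38.6 CPM in V, 39.5, 38.6 and 38.0 in WT, 37.9, 36.5 and 37.7 in SA, and 37.1, 37.9 and 39.4 in SD. CRTC3 was at 74.0, 68.7 and 75.8 CPM in V, 66.7, 68.0 and 68.2 in WT, 71.9, 73.0 and 68.5 in SA, and 66.5, 69.7 and 67.7 in SD.

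Promoters are shown for NR4A3, SIK1 and SIK2, the changed members with 1 start site in RefSeq (GRCh38.p14) that lies within 100 bases of the deposited start of the gene. They were searched on both strands for the cAMP response element TGACGTCA, for its shorter form TGACG, which is contained in it, and for the AHR core motif GCGTG, and matches are in capitals. Each window holds 250 bases before the start site and 50 bases from it on, read along the gene.
NR4A3 promoter, chr9:99821635-99821934, plus strand: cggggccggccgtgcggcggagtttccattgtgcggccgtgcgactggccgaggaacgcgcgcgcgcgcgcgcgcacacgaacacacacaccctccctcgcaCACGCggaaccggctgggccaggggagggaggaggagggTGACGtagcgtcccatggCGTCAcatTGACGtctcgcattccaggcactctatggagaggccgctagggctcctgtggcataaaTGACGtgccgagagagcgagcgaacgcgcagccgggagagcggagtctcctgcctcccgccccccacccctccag
SIK1 promoter, chr21:43427082-43427381, minus strand: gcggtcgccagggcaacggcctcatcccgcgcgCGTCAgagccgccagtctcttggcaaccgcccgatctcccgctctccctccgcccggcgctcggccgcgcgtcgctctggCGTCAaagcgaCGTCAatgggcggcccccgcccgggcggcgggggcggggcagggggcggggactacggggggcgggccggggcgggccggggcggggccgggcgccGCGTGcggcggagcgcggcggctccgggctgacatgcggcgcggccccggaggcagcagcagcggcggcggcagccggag
SIK2 promoter, chr11:111602199-111602498, plus strand: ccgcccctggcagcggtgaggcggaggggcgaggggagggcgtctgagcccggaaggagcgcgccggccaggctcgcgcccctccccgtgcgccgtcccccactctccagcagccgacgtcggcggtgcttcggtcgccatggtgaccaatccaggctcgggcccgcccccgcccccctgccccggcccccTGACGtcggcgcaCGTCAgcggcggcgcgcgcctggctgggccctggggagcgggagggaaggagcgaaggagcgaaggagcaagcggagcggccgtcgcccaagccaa
The NR4A3 window holds 4 matches to TGACG, at −109, −91, −83 and −25 from the start site, and 1 to GCGTG at −148. The SIK1 window holds 3 matches to TGACG, at −217, −137 and −126, and 1 to GCGTG at −30, and the SIK2 window holds 2 matches to TGACG, at −59 and −46. None of the 3 windows holds the full TGACGTCA. Of all 35116 RefSeq promoter windows, 1.85% hold TGACGTCA, 24.6% TGACG and 36.5% GCGTG, and of the 110 windows listed for 42 of the members, 5.45%, 27.3% and 48.2% do. Windows of 1 gene are not independent. The 6 member windows with TGACGTCA belong to CREM (2), PRKAR1A (2), PDE4A (1) and PDE7B (1). GCGTG was in 5 of 6 windows of PDE1C and of PRKAR1B, and in 5 of 5 of PDE4A. The shares were not tested against each other. The only window listed for PDE3A starts 202834 bases inside the deposited gene and is not shown.

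The other question was whether the form of AHR made a difference. Between SD and WT, 2 of 40 tested members changed, both higher in SD, where 0.708% of 14828 genes changed. Between WT and SA, 1 of 39 changed, lower in WT, where 0.0803% of 14942 genes changed. Between SD and SA, 0 of 40 changed by edgeR's test, where 0.22% of 15030 genes changed, and 6 had an unadjusted p under 0.05 (PDE10A, PDE4B, PDE4D, PDE7B and SIK2 higher and PRKAR1B lower in SD). The share of all genes at that unadjusted cutoff is not given here. In SD against SA, PDE10A passed with edgeR's exact test and in a test of every gene with a count, and 0 members passed with DESeq2. The members' median log2 fold change was 0.01 for SD against WT, 0.04 for SD against SA, and 0.00 for WT against SA.

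PDE10A, an enzyme for cAMP and cGMP best known from the striatum, lies on the minus strand of chromosome 6 (165327287 to 165988078). The SD libraries held 62.4, 60.4 and 65.8 CPM and the WT libraries 50.8, 51.4 and 45.7 CPM. The SA libraries held 50.4, 53.4 and 48.9 CPM and the V libraries 57.7, 51.5 and 52.2 CPM. All SD libraries were above the 9 others, and WT and SA overlapped. PDE10A was higher by 0.35 in SD than in WT (standard error 0.08, adjusted p = 0.0254), by 0.31 than in SA (standard error 0.07, adjusted p = 0.108) and by 0.22 than in V (adjusted p = 0.0817). PDE10A no longer passed against WT without WT replicate 1 (adjusted p = 0.0732), WT replicate 3 (0.183), SD replicate 2 (0.0586) or SD replicate 3 (0.0677), over a range of 0.00278 to 0.183.

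SIK1B was higher by 0.34 in SD than in WT (standard error 0.05, adjusted p = 9.68e-04), and this held on leaving out any library. It was lower by 0.26 on the log2 scale in WT than in SA (log2 fold change −0.26, standard error 0.05, adjusted p = 0.0362). With SIK1 and SIK1B summed, the 2 differences were 0.34 (adjusted p = 9.84e-04) and −0.26 (adjusted p = 0.0319), and SD and SA differed by 0.08 (adjusted p = 0.705). The difference between WT and SA in SIK1B was lost without WT replicate 1 (adjusted p = 0.222), WT replicate 2 (0.174), WT replicate 3 (0.0592), SA replicate 2 (0.0660) or SA replicate 3 (0.0782), over a range of 1.08e-04 to 0.222. In this transcript WT differed from both mutant lines. AHR was also highest in WT, at 266 CPM against 224 in SA and 210 in SD (469, 394 and 296 CPM with ENSG00000283321 added), and the part of its level in this difference was not tested.

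Other members were highest in SD without passing the quasi-likelihood test. PDE4D was higher by 0.23 in SD than in WT (adjusted p = 0.0796) and by 0.20 than in SA (adjusted p = 0.299), and all its SD libraries stood above those of WT and SA. Against WT it did pass with DESeq2, with edgeR's exact test, with either of the other filters on low counts and without SD replicate 3. PDE4B was at 49.5 ± 3.10 CPM in SD and 42.0 ± 1.58 in SA, a difference of 0.24 (adjusted p = 0.351). In WT it was at 45.4 ± 6.34 CPM, which overlapped SD (difference 0.13, adjusted p = 0.671), and its highest single library was a WT library. SIK2 was higher by 0.25 in SD than in WT (adjusted p = 0.121).

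**Figure D5:**
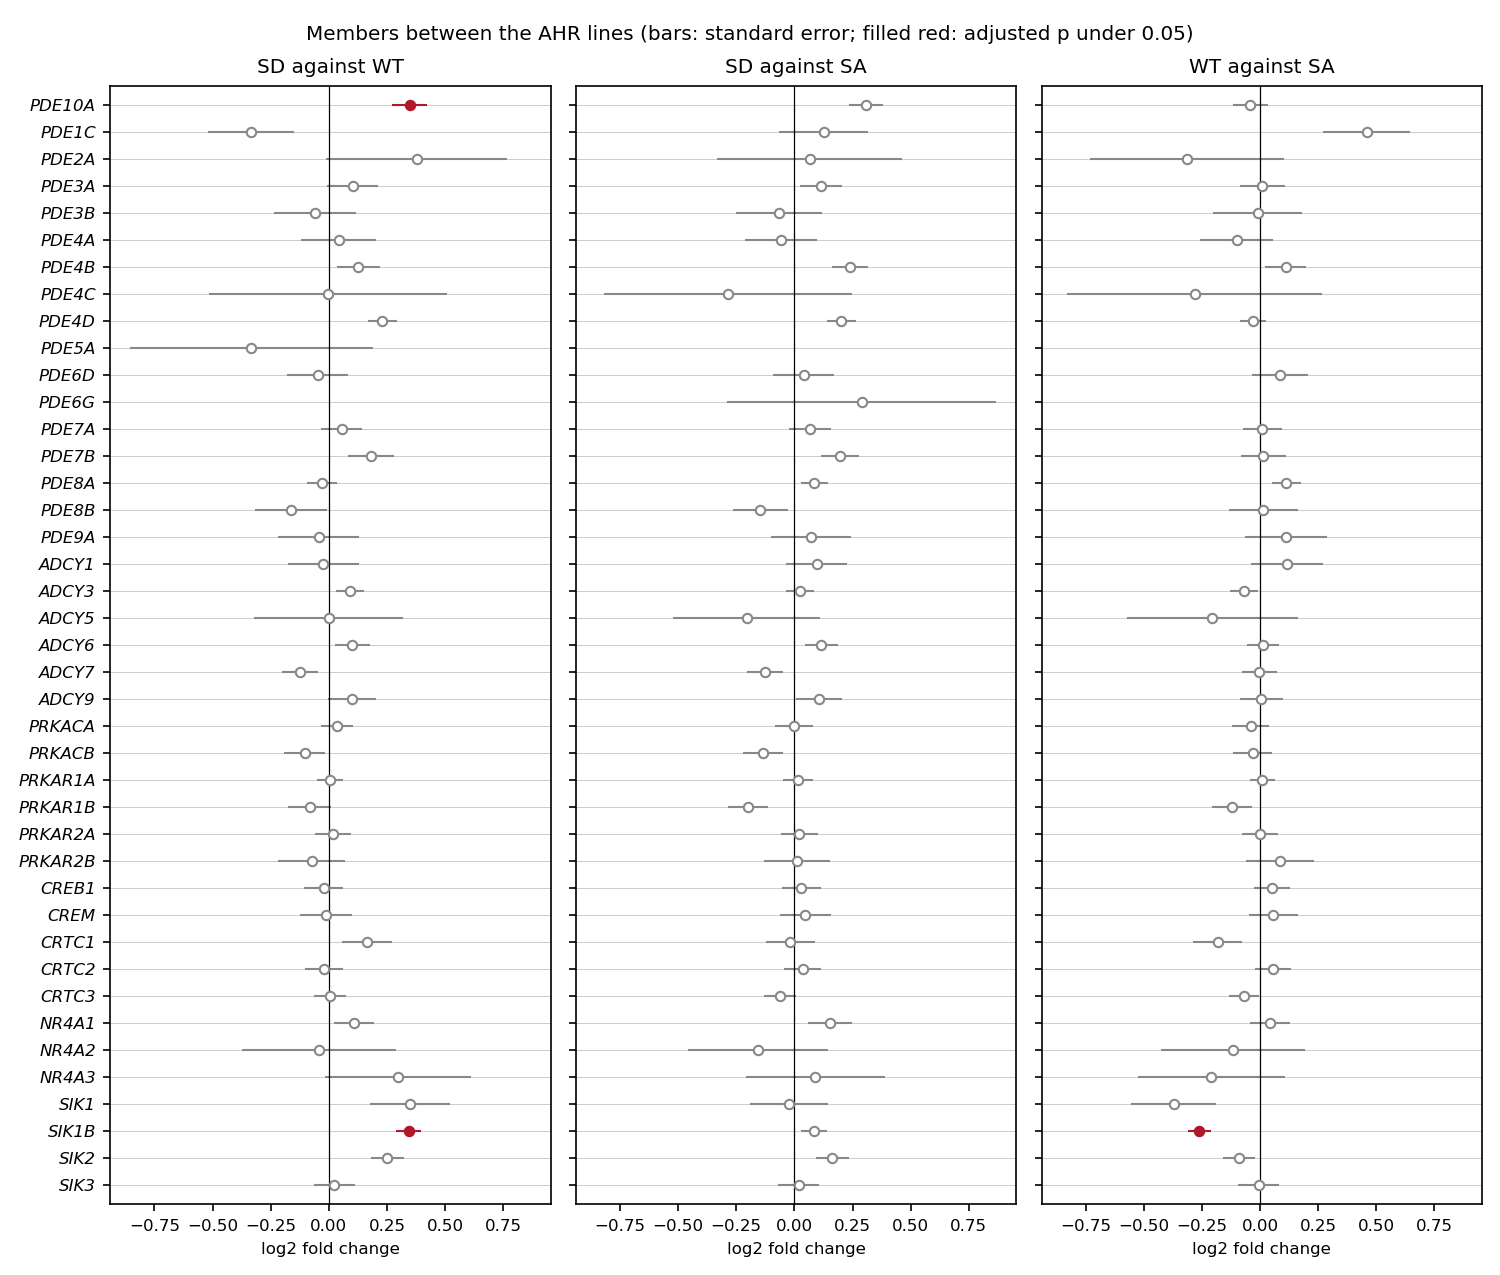
Log2 fold change of each tested member between the AHR lines (SD against WT, SD against SA and WT against SA), with bars for the standard error and filled red points for an adjusted p under 0.05 (edgeR). PDE10A and SIK1B are red in SD against WT, SIK1B in WT against SA, and no point is red in SD against SA.

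The rest of the pathway was read from 4 gene lists, chosen with earlier results of these data known. Of 25 G proteins and Gs-coupled receptors, 14 or 15 were tested, and 1 changed against V in each AHR line, 7.14% of those tested, beside 5.24% of all genes in WT, 7.17% in SA and 5.41% in SD. These were the inhibitory G protein GNAI1, which fell by 0.28 in WT (88.3 ± 2.71 CPM in V and 72.7 ± 5.15 in WT, adjusted p = 0.00782), and the vasoactive intestinal peptide receptor VIPR1, which rose from 2.10 ± 0.72 CPM in V to 4.85 ± 0.57 in SA (adjusted p = 0.0114) and 4.55 ± 0.65 in SD (adjusted p = 0.0291). The remaining AHR lines lay on the same side of V without passing: GNAI1 was at 79.2 ± 3.68 CPM in SA and 79.2 ± 2.56 in SD, and VIPR1 at 4.13 ± 1.55 CPM in WT. Among 24 other cAMP effectors, PKA anchors and inhibitors, 1 of 18 tested changed in WT (5.56%) and 2 of 18 in SA and in SD (11.1% each). AKAP12, which tethers PKA to the membrane, was lower in all 3 lines. It was at 834 ± 8.39 CPM in V, 672 ± 25.1 in WT (adjusted p = 2.88e-06), 692 ± 19.8 in SA (adjusted p = 1.25e-04) and 684 ± 29.0 in SD (adjusted p = 7.47e-04). The cAMP exporter ABCC4 was at 103 ± 6.89 CPM in V and was lower in SA (80.2 ± 4.91 CPM, adjusted p = 4.96e-04) and in SD (87.0 ± 5.82 CPM, adjusted p = 0.0318). In WT it was at 91.8 ± 8.15 CPM, below V on average, and did not pass.

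Of 22 genes known as CREB targets, 18 were tested, and 4 changed in WT (22.2%), 6 changed in SA (33.3%) and 8 changed in SD (44.4%) against V, beside 5.24%, 7.17% and 5.41% of all genes tested. They did not move one way: 2 rose and 2 fell in WT, 2 rose and 4 fell in SA, and 5 rose and 3 fell in SD. This list was chosen with earlier results of these data known, so its share was not tested against that of all genes. The neuropeptide precursor VGF rose in all 3 lines, from 31.9 ± 6.02 CPM in V to 45.2 ± 3.92 CPM in WT, 58.7 ± 2.15 CPM in SA and 54.3 ± 2.62 in SD. The metabolic coactivator PPARGC1A fell from 10.9 ± 2.69 CPM in V to 5.73 ± 1.24 CPM in WT, 6.38 ± 1.38 CPM in SA and 5.67 ± 0.63 in SD, and the antiproliferative gene BTG2 fell from 15.5 ± 3.25 CPM to 10.2 ± 0.44, 10.3 ± 0.60 and 9.16 ± 1.37. The immediate early gene FOS rose in SD to 7.18 ± 0.91 CPM from 3.76 ± 0.07 in V (adjusted p = 0.00864), and EGR1 rose in WT and SD. The insulin receptor substrate IRS2 fell from 71.5 ± 2.53 CPM in V to 55.1 ± 5.54 in SA (adjusted p = 0.00132) and 58.8 ± 3.74 in SD (adjusted p = 0.0172), and the clock gene PER2 fell from 25.7 ± 1.45 to 20.4 ± 0.87 CPM in SA (adjusted p = 0.0396). At low levels, NPTX1 rose in SA from 1.12 ± 0.43 to 2.98 ± 1.03 CPM (adjusted p = 0.0303). In SD the G protein regulator RGS2 rose from 5.17 ± 1.1 to 9.12 ± 1.52 CPM (adjusted p = 0.0138) and the secretogranin SCG2 from 1.22 ± 0.24 to 3.70 ± 0.62 CPM (adjusted p = 0.00490). Both also averaged above V in WT and SA without passing, RGS2 at 7.93 ± 0.08 and 7.38 ± 1.72 CPM and SCG2 at 2.23 ± 0.63 and 2.28 ± 0.21 CPM. FOS was at 5.29 ± 0.43 CPM in WT and 5.51 ± 1.88 in SA. EGR1 was at 3.30 ± 0.93 CPM in V and 5.17 ± 1.32 in SA. NPTX1 was at 2.24 ± 0.74 CPM in WT and 2.02 ± 0.21 in SD. PER2 was at 21.5 ± 1.41 CPM in WT and 21.4 ± 0.49 in SD, and IRS2 at 62.5 ± 7.80 in WT. These means did not pass, but lay on the same side of V as in the lines that passed. Among 10 guanylyl cyclases and cGMP-dependent kinases, GUCY1A2 fell by 0.57 in SA (adjusted p = 0.0214), 1 of 5 tested there. No gene of the 4 lists passed edgeR's test between the AHR lines. An unadjusted p under 0.05 was seen for 10 of 54 tested in SD against WT, 4 of 55 in SD against SA, and 5 of 56 in WT against SA. The share of all genes at that unadjusted cutoff is not given here, so these counts cannot be set against it.

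Some marker sums differed between V and the AHR libraries. That of the 5 alveolar type 2 markers overlapped, at 72.3 to 76.5 CPM in V and 67.1 to 79.2 CPM in the AHR libraries. The summed epithelial and A549 markers lay between 12585 and 12597 CPM in V and between 9990 and 10523 CPM in the AHR libraries. The 5 leukocyte markers summed to between 33.1 and 41.0 CPM in V and to between 42.8 and 54.1 CPM in the AHR libraries, with CD3E at 0, and the 5 fibroblast markers to between 10.2 and 13.3 CPM and between 5.58 and 9.39 CPM. Only CD14 and CD68 of the leukocyte markers and COL1A1 of the fibroblast markers averaged above 1 CPM. All 12 libraries are of the A549 cell line, so these sums rest on few genes and were not read as leukocytes or fibroblasts. The part of the markers in the differences of the members from V was not tested. Fewer cells with a transcript and less RNA per cell cannot be told apart in bulk RNA.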

How the data were processed

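Per the study's methods, reads were trimmed (Trimmomatic, v0.39) and assigned by RSEM to transcripts annotated on GRCh38. The values deposited by the authors are RSEM expected counts per gene, not normalized. RSEM divides reads that fit several genes. A second deposited table holds log2 fold changes, p-values and q-values of the authors' own comparisons and was not used. Strandedness is not given in the sources used here. Expected counts were rounded, and every comparison was fitted to the 6 libraries it involves in R 4.3.3 with edgeR 4.0.16 (TMM, filterByExpr with minimum count 10 and minimum total count 15, two-sided quasi-likelihood test, Benjamini-Hochberg adjustment over all genes tested, threshold 0.05). Standard errors were derived from the F statistics. CPM used TMM factors over the 12 libraries, and exon lengths came from GENCODE v44. The fit was tested on simulated data. The alternatives were 2 other filters, DESeq2's size factors, DESeq2 1.42.0, edgeR's exact test, a joint fit of the 12 libraries, a replicate block and each library left out. The sum of SIK1 and SIK1B was added after seeing the data. Libraries of a line were checked for copies and differed beyond sampling noise. Library totals ranged from 7844045 to 11765576.

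Members were matched by symbol, and the members and the gene lists were chosen with earlier results of these data known. Values of every library are given for members with an adjusted p under 0.05 in at least 1 comparison and for the 3 members of each family with the highest CPM per kb. Other pathway genes are named where they passed. Members at other levels are named after their values were seen. Of the 52 members, 41 have the deposited start and end in GENCODE v44, and coordinates are those deposited. Promoters are from RefSeq (GRCh38.p14), which matched 42 members. Figures were drawn with matplotlib 3.10.9.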

Additional observations from a re-analysis of the deposited data

Results flagged for a closer look

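In 3 cases the difference between an AHR line and V was itself different in another AHR line, as tested between the AHR lines with edgeR. PDE10A differed between SD and WT by a log2 fold change of 0.35 (adjusted p = 0.0254), and its SD libraries stood above all others. It did not pass edgeR's test against V in any AHR line (adjusted p = 0.0817 in SD). SIK1B differed by 0.34 between SD and WT (adjusted p = 9.68e-04). It differed by −0.26 between WT and SA (adjusted p = 0.0362), with every WT library below every SA library. The AHR transcript also differed between these lines, and its part in these differences was not tested.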

How the results depend on the processing

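Of the 20 changes of single members, 11 held in every setting tried and 0 reversed, and those lost are named with the library or tool in the results. SIK1 and its annotated copy SIK1B are counted apart in these numbers. Of the settings other than leaving out a library, 3 moved a count of members by more than 1.5 times: in SD against SA it went from 0 to 1 (PDE10A) with every gene that had at least 1 count, with edgeR's exact test and with the replicate block, and in SD against V from 5 to 3 with the replicate block. On leaving out each library, the counts ranged from 1 to 2 in SD against WT, from 0 to 1 in WT against SA, from 3 to 7 in WT against V and from 2 to 5 in SD against V. In SA against V they ranged from 5 to 8, with ADCY6 and PRKACA passing in addition without SA replicate 1. Another scaling moved the median of all genes by at most 0.0029 (log2).

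The deviations of libraries with the same replicate number from their line means correlated between −0.05 and 0.09 across genes. In the 3 comparisons between AHR lines these correlations were small but positive (0.017 to 0.062), and each of the 6 libraries correlated best with its own number. Of 6 libraries, 0 did so in WT against V and in SD against V, and 4 in SA against V. What the number stands for is not given in the labels, so a batch shared by number cannot be told from these values. With the number as a block, NR4A3 in WT against V (adjusted p = 0.0512), SIK1 in WT against V (0.0678), and NR4A1 (0.0517) and PDE8A (0.0596) in SD against V no longer passed, while PDE4D in SD against WT, and NR4A3 and PRKACA in SA against V, passed in addition to PDE10A in SD against SA. Depth limits the 11 members that were not tested, which had at most 64 counts over the 12 libraries.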
